A study of Mus musculus with 39 samples.

Results

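The genes described here were taken by symbol, and most encode nuclear subunits of the oxidative phosphorylation machinery. Every gene whose name begins with Nduf followed by a, b, c, s or v and a digit (named for complex I) was taken. So was every gene beginning with Uqcr (complex III), Cox4 to Cox8 (complex IV) or Atp5 (ATP synthase). The groups follow the symbols, so a member need not be a subunit of that complex: RefSeq names Atp5sl Dmac2 and Atp5s Dmac2l. The rule found 80 of the 24421 genes in the larger dendritic cell (DC) count tables, namely 37 Nduf, 8 Uqcr, 18 Cox and 17 Atp5 genes, and 70 of the 7830 genes in the T cell table, with 36, 8, 11 and 15 in the same order. Their level in bulk RNA sequencing was compared across 4 experiments on cells sorted from the popliteal and inguinal lymph nodes of C57BL/6 mice aged 8 to 12 weeks after hock immunization with nanoparticles. OT-I and OT-II T cells, which carry transgenic receptors for ovalbumin (OVA), had been transferred into mice of the study, and the particles carried OVA, the TLR9 ligand CpG and a rhodamine dye.

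The time course held wild-type DC in 5 groups of 2 libraries: non-immunized, particles with CpG alone at 12 h and at 24 h, and particles with OVA and CpG at 12 h and at 24 h. The 20 h experiment held wild-type DC in 3 groups of 5 libraries: non-immunized, particles with bovine serum albumin (BSA) and CpG, and particles with OVA and CpG. The costimulation experiment held DC 12 h after immunization in 4 groups of 2: 3 from wild-type mice, given OVA alone, OVA together with OT cells, or BSA together with OT cells, and 1 from Cd80/86-/- mice, which lack both CD28 ligands, given OVA together with OT cells. The T cell experiment held cells labelled CD4+ OT-II, called OT-II cells here after that label, 20 h after BSA or OVA particles, 3 libraries each. For the time course and the 20 h DC libraries the labels leave out which mice had received OT cells. No label says that replicates came from separate mice, so a p-value here measures only the spread between these libraries, which may be technical.

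Oxidative phosphorylation couples electron transfer to ATP synthesis in the mitochondrial inner membrane. Complex I oxidizes NADH, complex III passes electrons from ubiquinol to cytochrome c, complex IV hands them to oxygen, and the ATP synthase uses the resulting proton gradient. Resting T cells and DC rely on this pathway, and both cell types raise glycolysis on activation while T cells also enlarge their mitochondria. The subunits encoded by mitochondrial DNA are a separate set, and 0 of 13 appear in these tables.

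Promoter sequence is shown for 4 members that changed in at least 1 comparison, because most members shifted in 1 direction in several comparisons and the naming rule did not use promoter sequence. RefSeq windows on GRCm38.p6, from 250 bases before to 50 bases after the annotated start, matched 66 of the 80 members by symbol. The motif of the nuclear respiratory factor NRF1, searched as GCGCNTGCGC and on the other strand as GCGCANGCGC, lay in 15 of 66 members (22.7%) and in 1402 of 27025 genes with a window (5.19%). The ETS motif, searched as CCGGAAG and on the other strand as CTTCCGG, lay in 14 of 66 members (21.2%) and in 2683 of all genes (9.93%). The 180 bases before the start are printed 5′ to 3′ on the gene's own strand, the minus strand in each case, with NRF1 matches in capitals. Atp5g1 lies at chr11:96075632-96075811, Atp5k at chr5:108434400-108434579, Cox6a1 at chr5:115348959-115349138 and Ndufa5 at chr6:24527691-24527870.
Atp5g1: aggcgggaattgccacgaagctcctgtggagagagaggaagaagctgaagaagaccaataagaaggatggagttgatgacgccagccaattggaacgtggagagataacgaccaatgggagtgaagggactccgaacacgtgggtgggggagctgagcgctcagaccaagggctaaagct
Atp5k: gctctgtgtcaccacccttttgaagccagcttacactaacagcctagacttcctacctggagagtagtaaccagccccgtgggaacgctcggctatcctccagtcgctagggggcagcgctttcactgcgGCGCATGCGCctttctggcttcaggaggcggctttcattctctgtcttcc
Cox6a1: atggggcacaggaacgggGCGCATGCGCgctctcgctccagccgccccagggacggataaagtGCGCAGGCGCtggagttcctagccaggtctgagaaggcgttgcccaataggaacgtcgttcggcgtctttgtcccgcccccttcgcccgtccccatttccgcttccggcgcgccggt
Ndufa5: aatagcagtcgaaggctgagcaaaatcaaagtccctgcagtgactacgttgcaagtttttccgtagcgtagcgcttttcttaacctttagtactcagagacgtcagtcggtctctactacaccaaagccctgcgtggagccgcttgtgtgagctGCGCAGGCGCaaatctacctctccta
The Atp5g1 stretch held 0 matches, Atp5k 1 match beginning 50 bases before the start, Cox6a1 2 matches beginning 162 and 117 bases before it, and Ndufa5 1 match beginning 26 bases before it. Ndufa5 has another annotated start, whose 180 bases at chr6:24527527-24527706 held 0 matches and are not printed because they overlap sequence transcribed from the start shown. The 2 comparisons with most calls gave these medians for members with and without the NRF1 motif. In OT-II cells the median log2 change was 0.52 for the 14 tested members with it and 0.57 for the 46 without it, and in DC between 12 h and 24 h after OVA particles it was -0.35 for 14 and -0.37 for 46. The called members numbered 1 of 14 and 14 of 46 in OT-II cells, and 2 of 14 and 9 of 46 in DC. Calls in either direction are counted, so the OT-II counts of members without a motif include Cox7a2l, which fell. Of all genes tested, 15.9% were called in OT-II cells and 8.9% in this DC comparison. For the ETS motif the medians were 0.37 for 14 members with it and 0.59 for 46 without it in OT-II cells, and -0.52 and -0.33 in DC, with 3 and 12 members called in OT-II cells and 3 and 8 in DC.

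The DC libraries held 612017 to 1329203 reads in the time course, 628404 to 1621784 in the costimulation experiment and 367209 to 2052904 at 20 h. Reads recovered from the T cell table numbered 155088 to 402391 in the BSA libraries and 423594 to 1316341 in the OVA libraries, so depth and particle cannot be told apart there. The labelled cell types were only partly borne out. In the non-immunized time course libraries 14 T cell markers summed to 5866 and 5909 CPM (read counts scaled to library size), above the 2309 and 3876 of 12 DC markers, and in the BSA libraries of OT-II cells 7 measured DC markers summed to 2380 to 3130 normalized counts against 2609 to 3109 for 14 T cell markers. Cd8b1, which CD4 T cells should lack, averaged 140.5 normalized counts in the BSA and 126 in the OVA libraries of these cells, against 127 and 119 for Cd4. At 20 h DC markers summed to 17616 to 36789 CPM and T cell markers to 66.8 to 170.4 across the libraries. Costimulation libraries held 6236 to 23960 CPM of DC markers. Those given OVA without OT cells held 6236 and 10362 of DC, 11495 and 5184 of monocyte, and 4447 and 20534 of neutrophil markers. In wild-type libraries with OVA and OT cells, erythroid markers summed to 6528 and 16230 against 12879 and 14423 for DC markers. Fewer cells of a type and less RNA per cell cannot be told apart in these bulk libraries.

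A filter on low counts kept 70 members in the time course, 73 in the costimulation experiment, 72 at 20 h and 70 in T cells, and 70 members were tested in all 4. Of the members outside that set, Atp5s, a coupling factor that is not a core subunit, and Cox6b2, the testis form of subunit 6b, were tested in 2 experiments, and Cox6a2, the heart and muscle form of subunit 6a, in 1. The 7 tested nowhere were Atp5g2, another gene for the c subunit, with 128 reads over all 33 DC libraries, and the tissue-restricted forms Cox7a1 with 40, Ndufa4l2 with 5, Cox8b with 4, Cox4i2 with 3, and Cox7b2 and Cox8c with 0. The plot of summed levels gives each complex in every library. All members together summed to 16432 ± 1233 CPM (SD, n = 2) in non-immunized DC, 18693 ± 252 and 20162 ± 821 at 12 h after CpG and OVA particles, and 15826 ± 263 and 15854 ± 505 at 24 h.

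**Figure D1:**
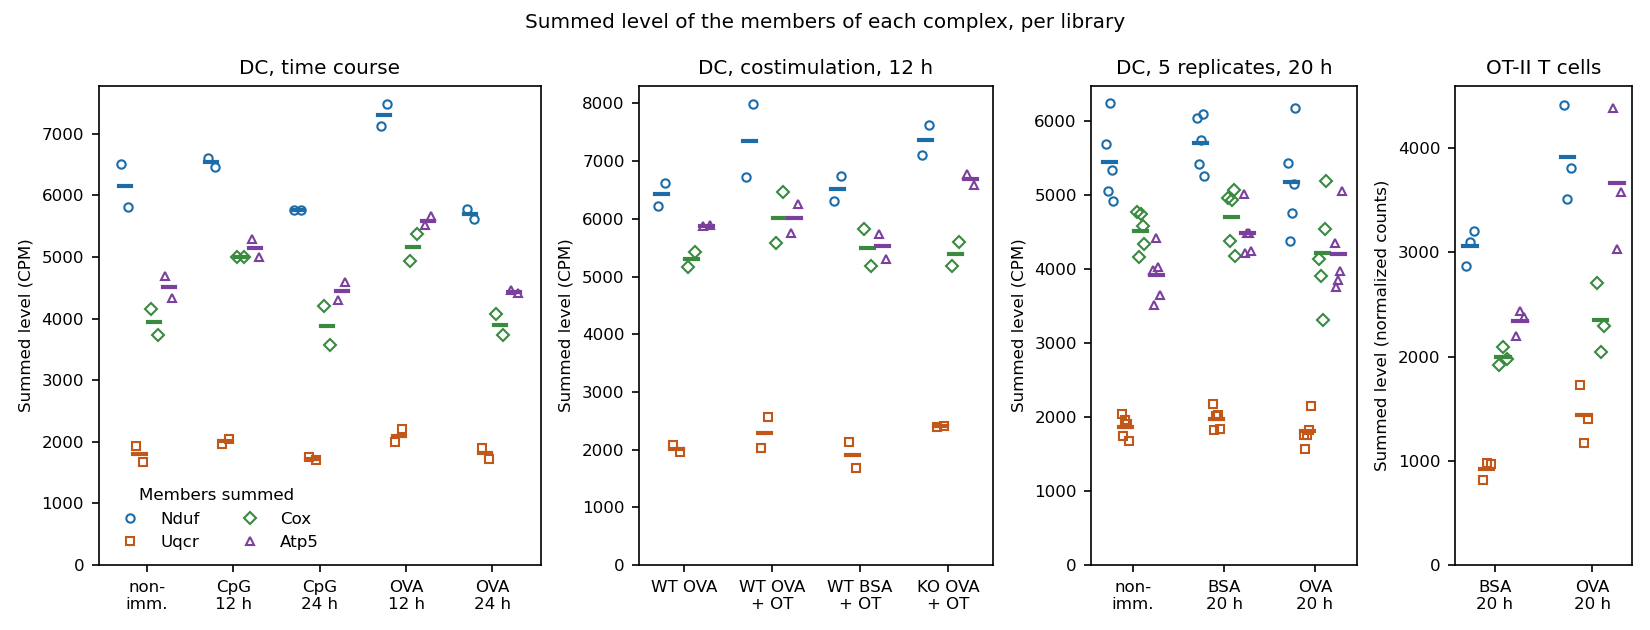
Summed level of the members of each complex in every library, in CPM for the 3 DC experiments and in normalized counts for OT-II cells, with a bar at each group's mean. In the time course the 12 h groups lie above the 24 h groups, with a mean over all members of 20162 CPM at 12 h and 15854 CPM at 24 h after OVA particles.

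OT-II cells from mice given OVA particles held more mRNA of many subunits than those from mice given BSA particles. Of 70 members tested, 16 rose and 1 fell (limma on log2(normalized count + 1), adjusted p below 0.05), against 15.9% of all 6452 genes called in either direction and 10.8% called higher and 5.04% lower. The members' median log2 change was 0.51, with 59 of 70 above 0, and the median of all genes tested was 0.04. By complex, 7 of 36 Nduf, 3 of 8 Uqcr, 1 of 11 Cox and 5 of 15 Atp5 members rose, and 1 Cox member fell. The summed level went from 2339 ± 128 to 3670 ± 679 normalized counts (SD, n = 3) for Atp5 members, from 921 ± 89.8 to 1435 ± 276 for Uqcr, from 3060 ± 171 to 3914 ± 460 for Nduf and from 1997 ± 91.6 to 2348 ± 339 for Cox.

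Among the ATP synthase genes, Atp5g1, 1 of 3 genes for the membrane c subunit, stood at 65.3, 55.6 and 56.0 normalized counts in the BSA libraries and at 191, 116 and 170.4 in the OVA libraries. The groups did not overlap, and the log2 change was 1.39 (SE 0.23, adjusted p = 0.00457). Atp5g3, which encodes the same mature protein, stood at 299.6, 275 and 341 against 748, 425 and 576 (log2 change 0.90, adjusted p = 0.0151). The catalytic beta subunit Atp5b stood at 316, 289 and 271 against 798, 461 and 569, with a log2 change of 1.02 (adjusted p = 0.00846). The lowest OVA library again lay above the highest BSA library. The alpha subunit Atp5a1, which alternates with beta in the F1 head, stood at 128, 114 and 124 against 279, 188 and 225 (log2 change 0.90, adjusted p = 0.0136). With Atp5d at a log2 change of 0.65 (adjusted p = 0.0337), 3 of the 5 F1 head subunits rose.

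In complex III, Uqcr10, a small subunit, went from 90.5, 119 and 98.8 to 262, 177 and 194.5 normalized counts (log2 change 1.02, adjusted p = 0.0107). Uqcrq, another small subunit, went from 219.5, 286 and 299.6 to 621, 393 and 510.4 (log2 change 0.91, adjusted p = 0.014). Uqcr11 also rose, by 0.72 on the log2 scale. The core subunit Uqcrc1 and the Rieske iron-sulfur protein Uqcrfs1 had log2 changes of 0.63 and 0.56 that missed the threshold (adjusted p = 0.0927 and 0.0943).

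Complex IV genes differed among themselves. Cox5a, a subunit of the matrix side, stood at 113, 90.0 and 106 in the BSA libraries and at 302, 161 and 213 in the OVA libraries (log2 change 1.08, adjusted p = 0.013). Cox7a2l was the 1 member that fell, from 215, 233 and 177 to 76.6, 125 and 114 (log2 change -1.002, adjusted p = 0.0141). Cox4i1, the ubiquitous form of subunit 4, stood at 426, 487 and 428 against 507, 408 and 470.0, with overlapping groups and a log2 change of 0.04 (SE 0.16, adjusted p = 0.875). Cox6a1, Cox6c, Cox7c and Cox8a had log2 changes of 0.17, 0.08, 0.16 and 0.10, with groups that overlapped. Cox7a2, Cox5b, Cox7b and Cox6b1 had log2 changes of 0.69, 0.61, 0.57 and 0.50, with groups that did not overlap and adjusted p of 0.0851, 0.0842, 0.0859 and 0.0939.

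Among the Nduf members, 1 of 7 nuclear core subunits of complex I and 6 of the 29 others rose. Ndufa12 went from 43.0, 63.6 and 33.6 to 149, 85.4 and 106.5 normalized counts (log2 change 1.27, adjusted p = 0.0137), and Ndufb8 from 71.2, 68.8 and 78.5 to 142, 107.5 and 134 (0.79, adjusted p = 0.0249). Ndufb6, Ndufa9, Ndufb2 and Ndufb7 rose by 0.83, 0.84, 0.79 and 0.61 on the log2 scale. Among the core subunits, which carry the electron path, Ndufv2 rose (log2 change 0.75, adjusted p = 0.0409), and Ndufs8 and Ndufs7 had log2 changes of 0.72 and 0.62 that missed the threshold (adjusted p = 0.0591 each). Ndufv1, which binds NADH, stood at 44.5, 39.7 and 58.1 against 53.5, 52.4 and 56.5 (adjusted p = 0.576), and Ndufs1, the largest core subunit, at 20.8, 26.5 and 24.5 against 27.3, 37.0 and 30.3 (adjusted p = 0.338).

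**Figure D2:**
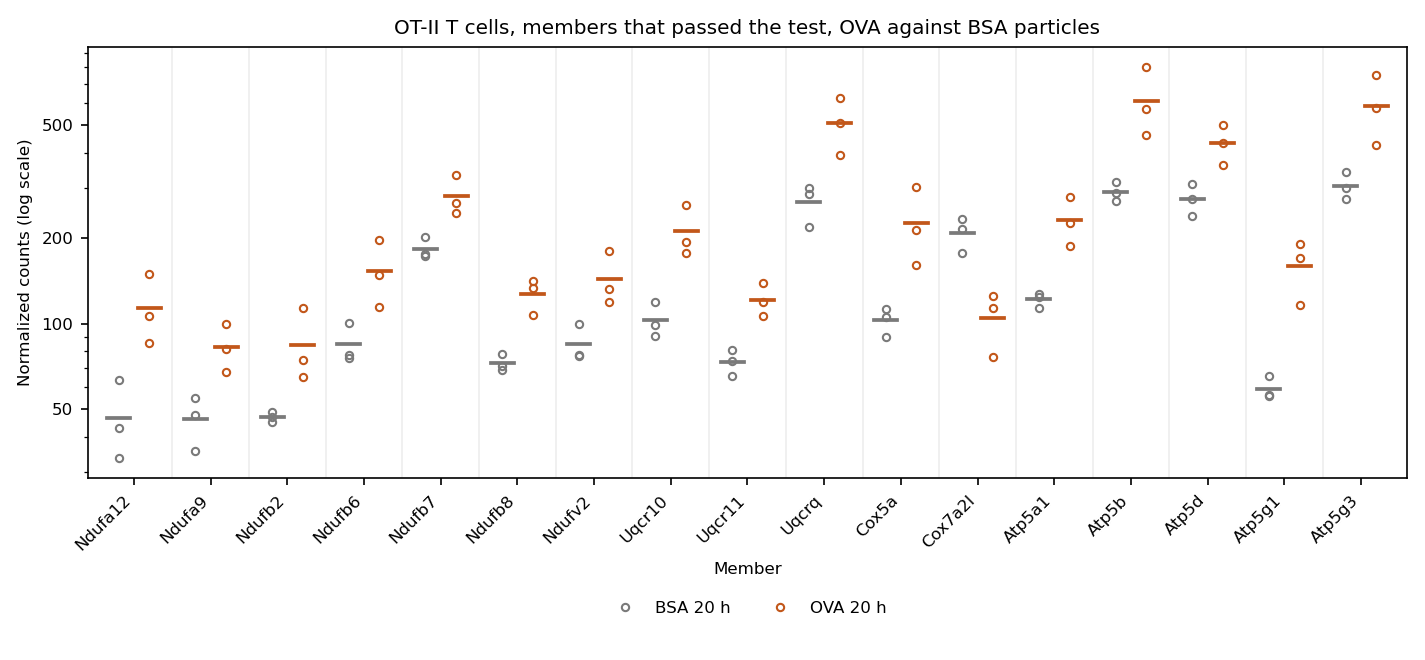
Normalized counts (log scale) of the 17 members that passed the test in OT-II cells, with 1 point a library and a bar at each group mean. The OVA libraries lie above the BSA libraries for 16 members and below them for Cox7a2l, at 76.6 to 125 against 177 to 233.

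In each of the 16 risers, OVA replicate 1 was the highest and OVA replicate 2 the lowest of the OVA libraries. The 7 measured DC markers summed to 775 normalized counts in OVA replicate 1, 2888 in replicate 2 and 1843 in replicate 3, against 2380 to 3130 in the BSA libraries. Within that list the MHC class II genes H2-Aa, H2-Ab1 and Cd74, which B cells share, made up most of the sum and averaged 440.0, 467 and 581 in OVA against 831, 805 and 939 in BSA libraries (adjusted p = 0.0945, 0.119 and 0.158), whereas Irf4 and Irf8 rose, from 24.8 to 139.7 and from 76.7 to 199 (adjusted p = 0.00277 and 0.0141). B cell markers summed to 59.8, 615 and 307 in OVA replicates 1, 2 and 3 against 421 to 687 in BSA libraries, monocyte markers to 80.8, 497 and 282 against 228 to 369, and NK cell markers to 42.0, 82.7 and 34.0 against 7.94 to 20.8. Xist, which is transcribed in female cells, averaged 93.4 ± 5.36 normalized counts in BSA and 18.4 ± 27.4 in OVA libraries (SD, n = 3; limma, log2 change -3.45, adjusted p = 0.0137), and 3 Y-linked genes summed to 37.1 to 63.6 and 50.0 to 94.5. The part of these differences in the subunit changes was not tested. Leaving out a library gave 10, 13 and 8 called members without BSA replicates 1, 2 and 3, and 9, 28 and 8 without OVA replicates 1, 2 and 3. Atp5b, Atp5g1, Atp5g3, Cox5a, Cox7a2l, Uqcr10 and Uqcrq passed in all 6 of these and in all 7 other settings tried.

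Other mitochondrial genes were read from lists chosen with earlier results known. Of 5 tested genes outside the naming rule, subunits and the electron carrier cytochrome c, 2 rose. They were cytochrome c1 (Cyc1, 55.8 to 163 normalized counts, limma adjusted p = 0.00505) and cytochrome c (Cycs, 9.95 to 29.7, adjusted p = 0.0283). Of 28 assembly factors 5 rose and 1 fell. The complex III factors Uqcc2 and Uqcc3 were among them, with log2 changes of 1.24 and -1.05, and the complex I factor Ndufaf4 rose by 1.14. None of the 4 complex II genes passed, and Sdha, its flavoprotein, averaged 69.6 and 70.0. Of 15 citric acid cycle genes 2 rose (Mdh2 and Idh3a, each by 0.83), of 6 carriers and porins 3 (the ADP/ATP carrier Slc25a5 by 1.06), of 11 glycolytic genes 4 (Ldha by 1.53), and of 72 mitochondrial ribosomal protein genes 18. Of 10 regulators of mitochondrial genes 2 rose, Pprc1 by 1.49 and Myc. Tfam, which packages and transcribes mitochondrial DNA, had a log2 change of 0.09, and the nuclear receptor Esrra one of -0.58, and neither passed. Myc went from 29.3 to 142 (log2 change 2.22, adjusted p = 0.0026).

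In the DC time course most members stood lower at 24 h than at 12 h after either particle, while few differed from non-immunized DC. At 12 h after OVA particles 5 of 70 members were higher than in non-immunized DC and 0 lower (edgeR's quasi-likelihood test), against 13.6% of 9428 genes in either direction and 9.56% higher, so the members' share, 7.14%, was not above that of all genes. The members' median log2 change was 0.30 and 62 of 70 were above 0, against an all-gene median of -0.03. Atp5f1, the b subunit of the ATP synthase stalk, stood at 347 and 302 CPM in non-immunized DC and at 536 and 514 after OVA particles (log2 change 0.69, adjusted p = 0.0113). Ndufa1, an accessory subunit of complex I, stood at 176.5 and 133 against 254 and 286.5 (0.80, adjusted p = 0.0173). Ndufb2, Ndufs4 and Cox6a1 rose by 0.67, 0.67 and 0.58. Leaving out non-immunized replicate 1 or OVA 12 h replicate 2 left 1 called member, leaving out non-immunized replicate 2 or OVA 12 h replicate 1 left 0, and a fit of the compared groups alone called 16.

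At 12 h after CpG particles 1 member was higher and 1 lower, with 16.3% of all genes called in either direction, 11.6% higher and 4.65% lower, and the median change was 0.20 with 55 of 70 above 0. Cox5b, a zinc-binding subunit of complex IV, stood at 100.4 and 113 CPM in non-immunized DC and at 141 and 192 after CpG particles (log2 change 0.63, adjusted p = 0.0476). Ndufa5, an accessory subunit of complex I, stood at 116 and 95.7 against 62.1 and 56.1 (-0.84, adjusted p = 0.0438). Without CpG 12 h replicate 1 the count was 1, without any of the other 3 libraries it was 0, and the fit of the compared groups alone called 5. At 24 h, 0 of 70 members differed from non-immunized DC after CpG particles (11% of genes called) or after OVA particles (14.1% called), with 4 and 5 members at an unadjusted p below 0.05, 0 and 0 by DESeq2, and medians of -0.07 and -0.15. Without OVA 24 h replicate 2 the last comparison called 1.

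The next comparison uses the same 2 OVA 12 h libraries as the comparison with non-immunized DC. Between 12 h and 24 h after OVA particles 13 of 70 members fell and 0 rose, against 8.9% of genes called in either direction and 3.87% called lower. The median log2 change was -0.37, with 65 of 70 below 0 and an all-gene median of 0.01. The fallers were 5 of 36 Nduf, 1 of 8 Uqcr, 4 of 11 Cox and 3 of 15 Atp5 members. The summed level went from 7310 to 5697 CPM for Nduf, from 5157 to 3902 for Cox, from 5593 to 4440 for Atp5 and from 2102 to 1815 for Uqcr members.

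In complex I, Ndufb2 stood at 96.3 and 119.5 CPM at 12 h and at 47.2 and 48.3 at 24 h (log2 change -1.16, SE 0.24, adjusted p = 0.00483). Ndufa1, Ndufv2, Ndufc1 and Ndufb8 fell by 0.89, 0.75, 0.92 and 0.78 on the log2 scale. In complex III, Uqcrb, which lies near the quinone site, stood at 216.5 and 163 against 129 and 105 (-0.71, adjusted p = 0.046), whereas Uqcrfs1 and Uqcrq had log2 changes of -0.04 and -0.23 and did not pass.

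In complex IV, Cox7c, a short membrane subunit, stood at 50.3 and 72.0 CPM at 12 h and at 25.0 and 22.9 at 24 h (log2 change -1.32, SE 0.30, adjusted p = 0.0103). Cox6c, another membrane subunit, stood at 386 and 468 against 239 and 219.8 (-0.89, adjusted p = 0.00638), with no overlap. Cox7b fell by 0.73 and Cox6a1 by 0.62 on the log2 scale. Cox4i1 stood at 966 and 1059 against 1101 and 869.6 CPM, with groups that overlapped (-0.04, adjusted p = 0.933), and Cox5a and Cox7a2l had log2 changes of -0.16 and -0.02.

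In the ATP synthase, Atp5j, a stalk subunit, stood at 186 and 196 CPM at 12 h and at 95.8 and 99.0 at 24 h (log2 change -0.97, adjusted p = 0.00516). Atp5g1 stood at 104 and 111 against 51.4 and 58.0 (-0.97, adjusted p = 0.0131), and Atp5k, the membrane subunit e, fell by 0.74 on the log2 scale. None of the 5 F1 head subunits passed, and Atp5b stood at 830.0 and 819 against 659 and 622 (-0.36, adjusted p = 0.197). Leaving out OVA 12 h replicate 1 or 2 gave 6 and 3 called members, leaving out OVA 24 h replicate 1 or 2 gave 1 and 2, and DESeq2 called 6.

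**Figure D3:**
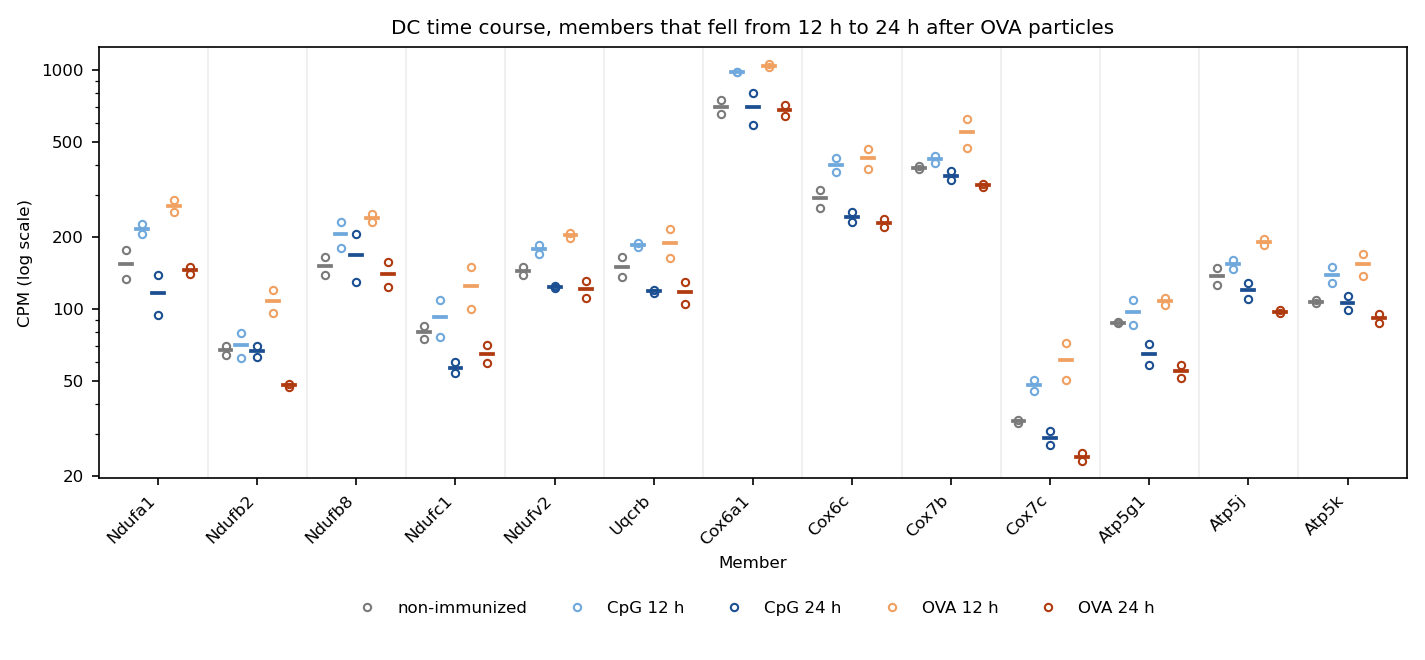
CPM (log scale) in the time course of the 13 members that fell between 12 h and 24 h after OVA particles, with 1 point a library and a bar at each group mean. Both OVA libraries at 24 h lie below both at 12 h for every member, for Ndufb2 at 47.2 and 48.3 against 96.3 and 119.5.

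After CpG particles 2 members fell from 12 h to 24 h, against 7.63% of genes called and 4.26% called lower, with a median of -0.22 and 60 of 70 below 0. Ndufa1 stood at 227 and 206 CPM at 12 h and at 94.2 and 138 at 24 h (log2 change -0.87, adjusted p = 0.0226), and Cox6c at 374 and 429.9 against 253 and 231 (-0.73, adjusted p = 0.0243). Leaving out CpG 12 h replicate 2 gave 0, CpG 24 h replicate 1 gave 4 and CpG 24 h replicate 2 gave 1. All 13 members that fell after OVA particles had a negative change after CpG particles, from -0.87 to -0.09. The test of the difference between the 2 time changes called 0 of 70 members (3.38% of genes called; 3 members at an unadjusted p below 0.05 and 0 by DESeq2). OVA and CpG particles compared directly gave 0 members at 12 h (2.46% of genes called, 3 at an unadjusted p below 0.05) and 0 at 24 h (0% called, 0 at that p), and 0 by DESeq2 at both.

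Markers of other cells moved with these changes. The summed level of the monocyte markers was 2780 and 2932 CPM at 12 h after OVA particles and 917 and 930.0 at 24 h, and 8 of 8 tested fell. After CpG particles it was 2448 and 2803 at 12 h and 855 and 1169 at 24 h, and neutrophil markers went from 14726 and 18832 to 96.6 and 894. Neutrophil markers were at 116 and 176 in non-immunized DC and at 2558 and 2568 at 12 h after OVA particles, with 7 of 7 tested higher, and 8 of 14 T cell markers were lower. The part of these cells in the subunit changes was not tested. Other mitochondrial genes from the chosen lists gave few calls between 12 h and 24 h after OVA particles: the ATP synthase subunit Usmg5 fell by 1.14 on the log2 scale, with 0 of 35 assembly factors and 0 of 4 complex II genes called. At 12 h after OVA particles Cycs rose by 1.20, Usmg5 by 0.95, the copper chaperone Cox17 by 0.61, and 6 of 13 glycolytic genes rose, with Pkm at 785 against 419 CPM.

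At 20 h, in the experiment with 5 libraries a group, few members changed. OVA particles against non-immunized DC gave 2 lower members of 72 and 0 higher, against 15.6% of 9159 genes called and 6.04% called lower, with a median change of -0.05. Ndufa5 stood at 37.5, 28.4, 85.3, 29.0 and 32.0 CPM in non-immunized DC and at 20.5, 16.0, 7.4, 18.4 and 23.2 after OVA particles, without overlap (log2 change -1.17, SE 0.34, adjusted p = 0.0215). After BSA particles it stood at 19.5, 33.2, 34.7, 47.5 and 16.8, which overlapped both. It lost its call without OVA replicate 3, and with Y-linked transcripts as a covariate (adjusted p = 0.0543). Uqcrq stood at 574, 489, 613, 438 and 330.3 against 354, 288, 280.4, 379.5 and 416, with overlap (-0.50, adjusted p = 0.047), and it lost its call in 7 of 10 fits without 1 library. The count of called members was 1 without non-immunized replicate 1 or 4 or OVA replicate 1, 4 without OVA replicate 4, 5 without non-immunized replicate 5 or OVA replicate 5, and 5 by DESeq2.

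BSA particles at 20 h gave 1 lower member of 72, with 5.45% of genes called and 1.77% called lower. Cox6b2, tested although low, stood at 14.6, 13.5, 13.8, 17.8 and 8.6 CPM in non-immunized DC and at 5.6, 6.2, 4.1, 4.9 and 8.0 after BSA particles, without overlap (log2 change -1.25, SE 0.31, adjusted p = 0.0219). It was not called without non-immunized replicate 1 or 4 or BSA replicate 1 or 3, nor with the Y-linked covariate. OVA against BSA particles called 0 of 72 members and 0% of genes, with 2 members at an unadjusted p below 0.05 and 0 by DESeq2. The median log2 change was -0.12, with 61 of 72 below 0 and an all-gene median of 0.00. The 16 members that rose in OT-II cells had changes of -0.34 to 0.02 in this DC comparison, 14 of them below 0. In DC at 12 h with OT cells, OVA against BSA particles, the same 16 had changes of -0.37 to 0.40, 10 of them above 0. Neither comparison called any of them. Monocyte markers summed to 543 to 1901 CPM in the non-immunized libraries, 166 to 279 after BSA and 93.0 to 263 after OVA particles. Y-linked transcripts summed to 5.55 to 280.1, 0.799 to 9.82 and 2.81 to 230.6 CPM in the same order, and erythroid markers to 18.8 to 1275, 3.53 to 276 and 1.14 to 692. The part of the monocyte and erythroid markers in the calls was not tested.

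In the costimulation experiment no member passed. OT cells against none gave 0 of 73 (2.6% of 9355 genes called), OVA against BSA with OT cells 0 (0.0107% called), and Cd80/86-/- against wild type 0 (0% called). At an unadjusted p below 0.05 there were 4, 7 and 7 members, and DESeq2 called 0 in each. Median changes were 0.12, 0.18 and 0.00. Without BSA replicate 1 the OVA against BSA comparison called 9 members, and the fit of the compared groups alone called 4 members for the knockout.

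Ndufv1 and Cox6a2 stood out by their spread and were singled out with their values in view. Ndufv1 stood at 121 and 112.5 CPM in the knockout and at 54.9 and 44.2 in wild-type DC under the same treatment (log2 change 1.22, SE 0.33, unadjusted p = 0.0033, adjusted p = 0.274). Without OT cells the wild type stood at 93.7 and 55.7. In the same libraries erythroid markers summed to 41.9 and 119 CPM in the knockout against 6528 and 16230 in the wild type, and monocyte markers to 9035 and 7237 against 4739 and 4876. Cox6a2 ranged from 3.3 to 567.8 CPM, with 75.1 and 209 in wild type without OT cells, 14.9 and 20.1 with OVA and OT cells, 3.3 and 567.8 with BSA and OT cells, and 172.5 and 120.0 in the knockout. Its adjusted p was 0.247, 0.455 and 0.407 in the 3 comparisons. Summed over the 4 plasmacytoid DC markers, Siglech, Ccr9, Pacsin1 and Ly6d, the same libraries held 732 and 1812, 129 and 85.7, 60.1 and 2348, and 969 and 893 CPM. Among these libraries, the one with the lowest marker sum held the least Cox6a2 and the one with the highest held the most. The time course differed: there the same markers summed to 269 to 687 CPM, while Cox6a2 stood at 0 to 3.4 CPM, with 7 reads in all. In wild-type costimulation libraries given OVA, NK cell markers were at 2046 and 5159 CPM without OT cells and at 29.4 and 123 with them. The part of plasmacytoid DC and NK cells in the costimulation values was not tested.

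**Figure D4:**
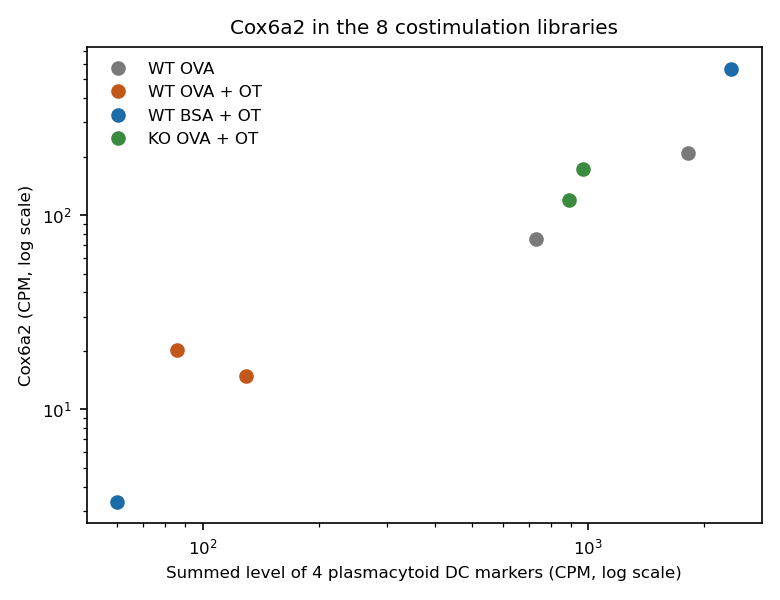
Cox6a2 level against the summed level of 4 plasmacytoid DC markers (both in CPM, log scales) in the 8 costimulation libraries, 1 point each. The 3 libraries with marker sums of 60.1 to 129 CPM hold 3.3 to 20.1 CPM of Cox6a2 and the other 5 hold 75.1 to 567.8.

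Of 16 members higher in OT-II cells, 4 (Atp5g1, Ndufb2, Ndufb8 and Ndufv2) fell in DC between 12 h and 24 h after OVA particles. In that DC comparison 13 of 70 tested members fell, which is 18.6%. These calls were mostly unstable. In OT-II cells Atp5g1 kept its call in 6 of 6 fits without 1 library, and Ndufb2, Ndufb8 and Ndufv2 in 1 of 6 each. Ndufb2 also kept it in only 1 of 7 other settings. In DC, Atp5g1, Ndufb8 and Ndufv2, but not Ndufb2, lost their calls whenever 1 of the 4 compared libraries was left out. Such DC fits left 1 library in a group. Ndufa5 was called lower in 2 DC comparisons from separate experiments, at 12 h after CpG particles and at 20 h after OVA particles. These differ in particle and time. The first call was lost with DESeq2 and whenever 1 of the 4 compared libraries was left out, which left 1 library in a group. Its log2 change ranged from -0.97 to -0.70 over the alternatives. The second call was lost with Y-linked transcripts as a covariate and kept in 9 of 10 fits without 1 library. The map of changes shows the calls of OT-II cells and of the later time point in DC as separate columns, with no calls in the costimulation columns.

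**Figure D5:**
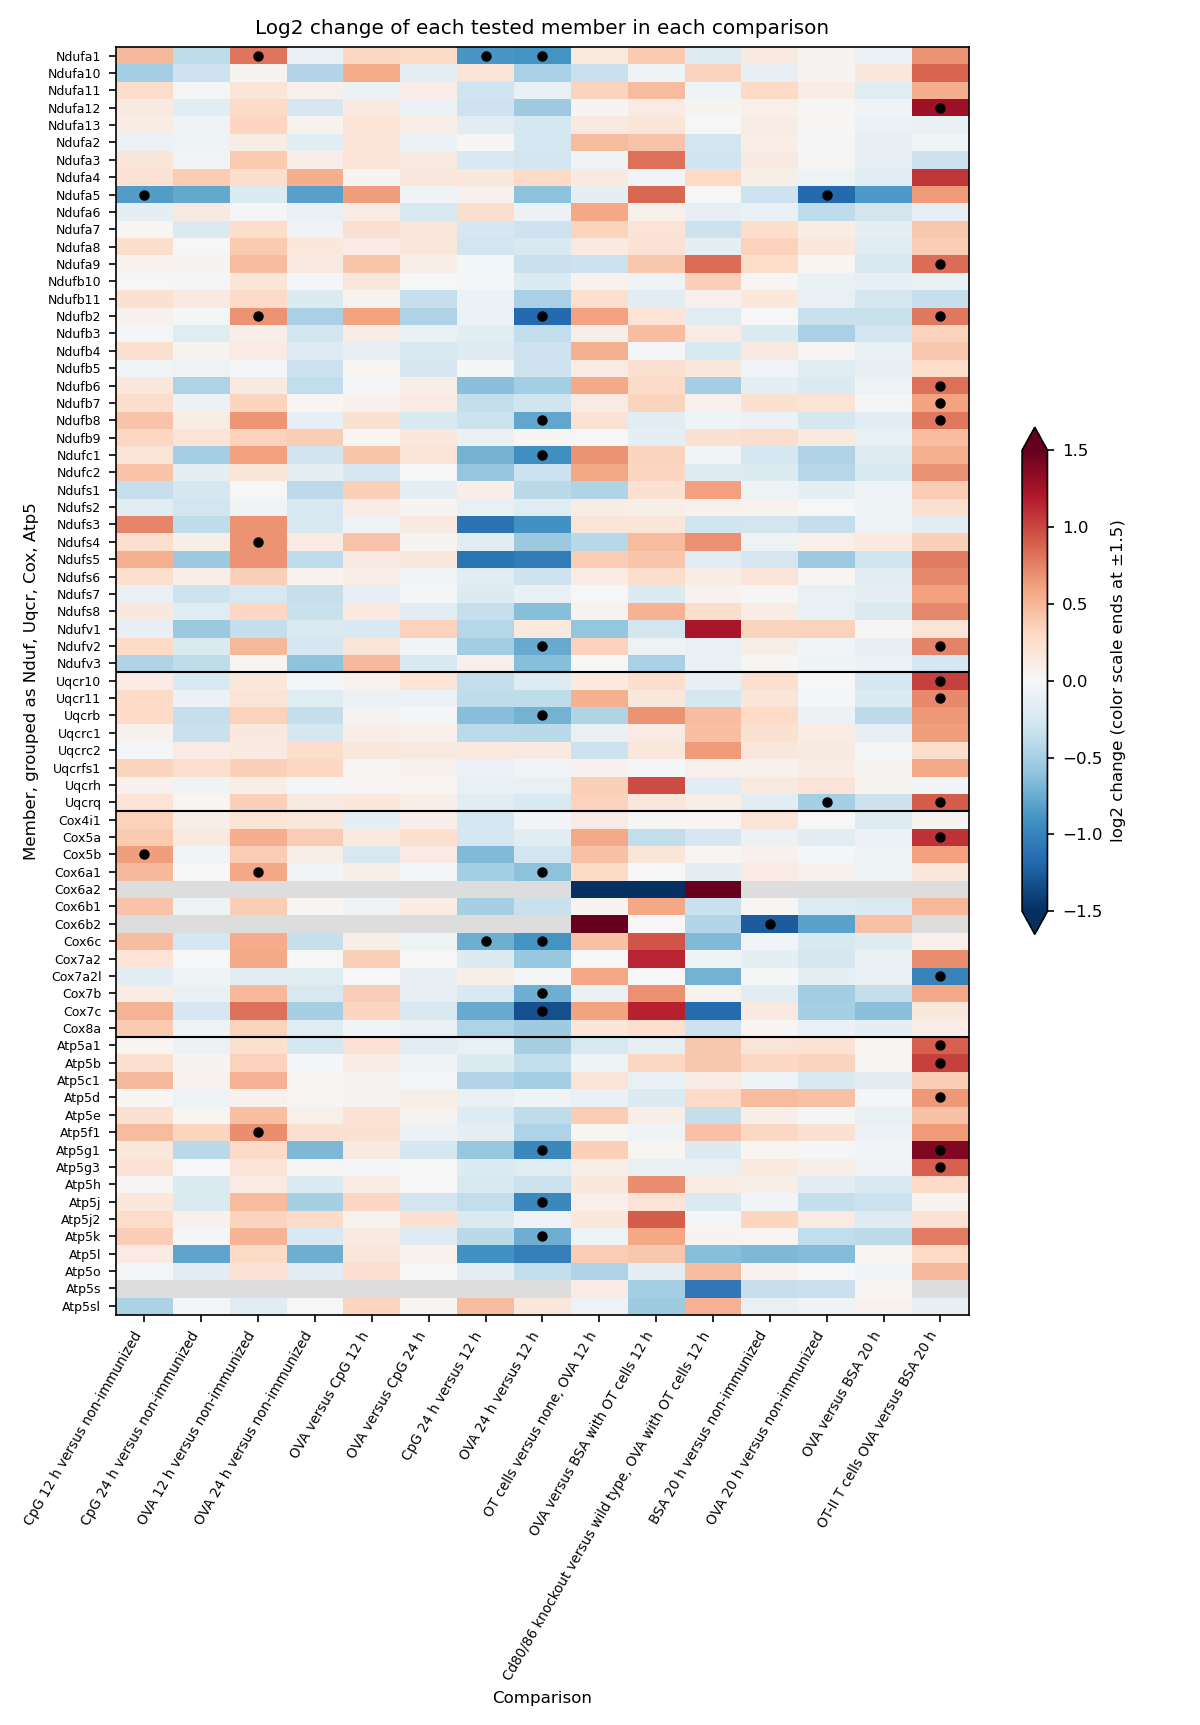
Log2 change of each tested member (rows, grouped by complex) in each comparison (columns), with red for higher and blue for lower in the group named first, grey for not tested and a black dot for adjusted p below 0.05. The OT-II column holds 17 dots, the column of 24 h against 12 h after OVA particles 13, and the 3 costimulation columns 0.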

How the data were processed

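The members and gene lists were chosen with earlier results of these data known. RNA of sorted cells was captured with oligo(dT) and amplified linearly, per the labels' protocols. The authors used HISAT 0.1.6, HOMER and bcl2fastq with mm9, per the submitters' processing notes. The deposited DC tables hold raw read counts. The deposited T cell values are a count signal divided by size factors, and 100% came out as whole reads within 0.01. How its genes were chosen is not given in the sources used here. 4 columns of values with no sample were not used.

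DC counts were tested with edgeR 4.0.16 (quasi-likelihood, TMM scaling, filterByExpr), fitting all libraries of an experiment. T cell values were tested with limma 3.58.1 on log2(normalized count + 1), for genes at 10 or more in at least 3 libraries, a scale that understates changes of low genes. P-values were Benjamini-Hochberg adjusted over all genes tested (threshold 0.05). Levels are TMM-scaled CPM computed from the counts, or deposited normalized counts. SEs from edgeR are approximate. DESeq2 1.42.0, other filters, scalings, pseudocounts, a replicate block and leaving out libraries were alternatives. Scripts were tested on simulated data. Genes named per comparison and complex were up to 5 called members by smallest adjusted p, otherwise the 2 smallest p, plus a fixed set of followed members, members not tested and up to 3 called genes of each other list.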

Additional observations from a re-analysis of the deposited data

Results flagged for a closer look

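Groups of 5 libraries were checked for named members and for the summed levels of each complex and of all members. Among these 66 groups, 3 held a library far from the others, where chance gives about 1 in 20. In non-immunized DC of the 20 h experiment, replicate 3 stood at 611 CPM for Atp5b, against 464 to 484 in the other 4 libraries. The same library stood at 85.3 CPM for Ndufa5, against 28.4 to 37.5, a value that rests on 31 reads. It held 367209 reads in all, against 913418 to 1638434 in the rest of its group. Its monocyte markers summed to 1901 CPM, against 543 to 1026. The part of depth and of monocyte markers in these values was not tested. BSA replicate 1 stood at 118 CPM for Uqcrc1, against 132 to 137 in the other 4.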

How the results depend on the processing

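Direction was followed for members called in the main fit, the fixed set of followed members and, where none was called, the 2 of smallest p. Of these, none that was called in the main or the alternative fit reversed direction under the alternatives run. Over these members, 2985 values kept their side of the threshold, 166 lost and 30 gained a call. Other members called only in an alternative fit were not checked for direction. Switches of direction in members called in neither fit were not counted. Counts of called members moved by over 1.5 times as follows. DESeq2 gave 0 for CpG 12 h and 3 for OVA 12 h against non-immunized, 6 for OVA 24 h against 12 h and 5 for OVA 20 h against non-immunized. DESeq2 size factors in edgeR gave 8 for OVA 12 h. No filter on low counts gave 1 for CpG 12 h, 1 for CpG 24 h, 2 for OVA 24 h and 1 for OVA 20 h against non-immunized, 1 for OT cells against none, 1 for OVA against BSA with OT cells and 2 for the knockout. A filter at a mean of 1 CPM gave 1 for OVA 24 h and 1 for OVA 20 h against non-immunized. Fitting only the groups compared gave 5 for CpG 12 h, 16 for OVA 12 h and 3 for OVA 24 h against non-immunized, 0 for CpG 24 h against 12 h, 1 for OT cells against none and 4 for the knockout. Y-linked transcripts as a covariate gave 0 for BSA 20 h and 0 for OVA 20 h. The cause of these moves was not tested.

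Leaving out 1 library at a time gave 0 to 1 called members for CpG 12 h, OVA 12 h, OVA 24 h and BSA 20 h against non-immunized, 0 to 4 for CpG 24 h against 12 h, 1 to 6 for OVA 24 h against 12 h, 0 to 9 for OVA against BSA with OT cells, 1 to 5 for OVA 20 h against non-immunized and 8 to 28 in OT-II cells. Where this left 1 library in a group, it was assumed to vary like the others.

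Whether shared replicate numbers pair the libraries was not settled. Deviations from the group mean correlated above 0.1 between same-numbered libraries in 2 of 20 pairs of the time course and 0 of 3 of the T cells. They did so in 3 of 9 pairs of the costimulation experiment and 4 of 15 at 20 h. Where 2 groups of 2 libraries share both numbers, the 2 pairs give the same value. Differently numbered libraries were not compared, so these correlations cannot decide on pairing. With the replicate block the count was 3 for OVA 12 h, 1 for OVA 24 h, 0 for BSA 20 h and 1 for OVA 20 h against non-immunized, 1 for OT cells against none, 1 for the knockout and 11 for OT-II cells. With 2 libraries a group in 2 experiments, and at these depths, smaller changes may have gone undetected.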
